A study of Mus musculus with 8 samples.

Results

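The B cell receptor is carried to the surface and wired to the cell interior by a small set of membrane proteins. The 9 genes described here encode the signalling chains of that receptor (Cd79a, Cd79b), coreceptors that restrain it (Cd22, Cd72), and the B cell surface proteins Ms4a1, Cd37, Cd81, Cd52 and Cd38. They were taken by symbol from the deposited tables, where all 9 of 9 were found among 23469 gene symbols and all passed the filter on low values that left 6446 genes to test.

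Germinal centre B cells are antigen-activated B cells that mutate their antibody genes and compete for survival through the affinity of their receptor. They were sorted from C57BL/6 mice as B220+ cells with high FAS and high GL7, on day 13 of a response to NP-KLH (a hapten coupled to a carrier). Control mice (Ctrl) were CD19cre/+ Irf8+/+, and conditional knockouts (Irf8 cKO) were CD19cre/+ Irf8flox/flox, so that both groups carry the Cre allele, which is active in B cells. Each of 2 experiments gave 1 library of each genotype (n = 2 per group), and nothing in the labels says that the libraries came from separate animals. The limma p-values therefore measure no more than the spread between these libraries, which may be technical. As deposited, that spread was taken from genes of similar level and not from each gene's own values. The comparison asks which transcripts of germinal centre B cells depend on IRF8, a transcription factor of B and myeloid cells.

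As background, the antigen-binding immunoglobulin has almost no tail inside the cell, and the CD79A and CD79B chains signal for it through a motif with a pair of tyrosines, the ITAM, which recruits the kinase SYK once phosphorylated by LYN. CD22, a lectin that binds sialic acid, and CD72 carry a motif with a single tyrosine, the ITIM, which recruits the phosphatase SHP-1 and dampens the signal. CD81 is a tetraspanin of the receptor's coreceptor complex, CD37 is another tetraspanin, and MS4A1 (CD20) spans the membrane several times and is the target of therapeutic antibodies. CD52 is a very short glycoprotein on a lipid anchor, and CD38 is an enzyme that consumes NAD, whose surface level is low on mouse germinal centre B cells.

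Ms4a1 and Cd72 lay at opposite ends of the set. Ms4a1 transcript was lower in the libraries labelled Irf8 cKO in both experiments, at 50.8% and 34.6% of the Ctrl level, while Cd72 was higher in both, at 1.81 and 1.19 times the Ctrl level. These are deposited values, in which most genes were lower (median log2 ratio -0.18 in experiment 1 and -0.51 in experiment 2). Scaled for that shift, log2 ratios were -0.72 and -0.78 for Ms4a1 and 0.90 and 0.85 for Cd72. Ms4a1 passed the limma test only as deposited (adjusted p = 0.0356, against 0.223 scaled). Cd72 passed it only after scaling (adjusted p = 0.0268, against 0.350 as deposited). The amount of Cd72 transcript per Ms4a1 transcript, which does not depend on how libraries are scaled to each other, was 3.55 and 3.44 times as high in the libraries labelled Irf8 cKO. The receptor chains Cd79a and Cd79b stayed close to each other in all 4 libraries.

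The coding DNA of the signalling motifs is shown because these motifs are the sites through which the chains and the inhibitory coreceptors are known to signal. It was read from the GENCODE M21 transcripts of GRCm38 (the assembly of mm10) that match the RefSeq accessions of the tables, 5′ to 3′ on the coding strand, with the tyrosine codons of the motif in capitals. The ITAM was searched in the translated sequence as an acidic residue, 2 residues, tyrosine, 2 residues, leucine or isoleucine, a spacer of 6 to 8 residues, tyrosine, 2 residues, and leucine or isoleucine. The ITIM was searched as isoleucine, leucine, valine or serine, any residue, tyrosine, 2 residues, and isoleucine, leucine or valine. Of 21901 protein-coding genes, 0.365% held an ITAM match in their longest coding sequence, and 48.6% held an ITIM match, so that the second pattern is common.
Cd79a ITAM, residues 179 to 196 of 220: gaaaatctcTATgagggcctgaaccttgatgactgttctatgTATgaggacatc
Cd79b ITAM, residues 192 to 209 of 228: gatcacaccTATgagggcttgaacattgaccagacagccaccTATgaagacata
Cd22 ITIM, residues 841 to 846 of 868: atccatTACtcagagctg
Cd22 ITIM, residues 861 to 866 of 868: gtagacTATgtgaccctc
Cd72 ITIM, residues 5 to 10 of 361: atcacgTATgcagacctg
Cd72 ITIM, residues 37 to 42 of 361: ctcaccTACgagaatgtg

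Each ITAM is split over an exon boundary. That of Cd79a lies at chr7:24901287-24901301 and chr7:24901431-24901469 (plus strand, exons 4 and 5 of 5), and that of Cd79b at chr11:106312007-106312021 and chr11:106311867-106311905 (minus strand, exons 5 and 6 of 6). The Cd22 matches lie in exon 16 of 16 at chr7:30866600-30866617 and chr7:30866540-30866557, and those of Cd72 in exons 1 and 2 of 9 at chr4:43454498-43454515 and chr4:43454306-43454323, all on the minus strand. By gene, Cd79a spans chr7:24897511-24902197, Cd79b chr11:106311341-106314529, Cd37 chr7:45233632-45238839, Cd81 chr7:143052750-143067930, Cd52 chr4:134093538-134095073 and Cd38 chr5:43868827-43912374 (mm10). The Cd22 sequence held 5 ITIM matches in all and that of Cd72 held 4, so those shown are only part of the matches found. Being left out says nothing on whether a match signals. The search ran over whole translated sequences, so a match may lie outside the tail inside the cell. The Cd22 matches not shown lie at residues 3 to 8, 781 to 786 and 815 to 820. Those of Cd72 not shown lie at residues 93 to 98 and 116 to 121. Cd79a held 2 ITIM matches, of which that at residues 191 to 196 lies inside its ITAM, and Cd81 and Cd38 held 1 each, so the ITIM pattern does not set the coreceptors apart. It was absent from Cd79b, Ms4a1, Cd37 and Cd52, and an ITAM match was found among the 9 genes in Cd79a and Cd79b alone.

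The tables give each gene as RPKM, that is, reads set against transcript length and mapped reads, so that levels can be compared between genes. Read totals estimated from the spacing of low values were 62.8 to 75.5 M, and the 9 genes then held an estimated 288 reads (Cd38 in the library labelled Irf8 cKO 2) to 21561 reads (Ms4a1 in Ctrl 1) each. The RNA was amplified before sequencing, so these reads are not independent molecules and their number gives no measure of that error. Over the 6446 tested genes the median log2 ratio of labelled Irf8 cKO to Ctrl, computed as log2(RPKM + 1), was -0.18 in experiment 1 and -0.51 in experiment 2, so that most genes were lower in the deposited values. The log2 ratio of each of the 9 genes is therefore also given after median-of-ratios scaling. That scaling sets the shift aside (median log2 ratio -0.02 over both experiments). RPKM values are as deposited unless called scaled, and for some other genes no scaled value is given. The library labelled Irf8 cKO 2 had the fewest genes at 1 RPKM or more (4845, against 6171 to 6566 in the others). It also had the highest value of Rn45s, the ribosomal RNA precursor, at 16716 RPKM against 5887 to 9085 in the others. How far this bears on the other values of that library was not tested. Irf8 itself stood at 14.5 (Ctrl) and 20.6 RPKM (labelled Irf8 cKO) in experiment 1, and at 14.9 and 11.6 RPKM in experiment 2. After scaling Irf8 was higher in the library labelled Irf8 cKO in both experiments, at 11.5 against 19.5 and 13.3 against 17.2 scaled RPKM, and the groups did not overlap. Its log2 ratio was 0.08 ± 0.35 (SE) before scaling and 0.53 ± 0.19 after it, neither past the threshold (limma adjusted p = 0.880 and 0.3003; unadjusted p after scaling 0.0151), and the authors' deposited table gives 0.717 and 0.366. The targeted gene was thus lower in the library labelled Irf8 cKO only in experiment 2 as deposited. It was higher in experiment 1, and in both experiments after scaling, which is not what the labels would have. Its value covers the gene's annotated transcript and so does not check the deletion, and every direction below is that of the libraries as labelled.

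**Figure D1:**
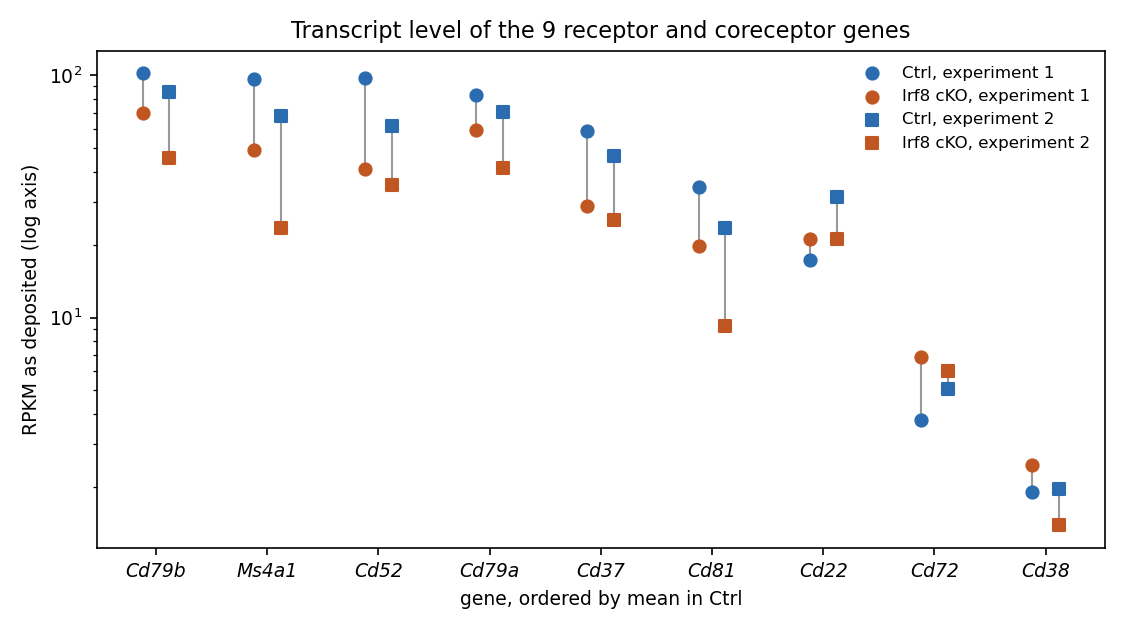
RPKM as deposited (log axis) of the 9 genes in the 4 libraries; circles are experiment 1 and squares experiment 2, blue is Ctrl and orange is labelled Irf8 cKO, and a grey line joins the pair of libraries of an experiment. Both orange points lie below both blue points for 6 genes, as for 44.7% of all tested genes, and both lie above for Cd72, as for 1.19%.

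In such sorted bulk samples fewer cells of a type and less RNA per cell cannot be told apart. The receptor chains were among the most abundant transcripts. Cd79b gave 101.8 RPKM in Ctrl 1, 84.9 in Ctrl 2, 69.9 in labelled Irf8 cKO 1 and 45.6 in labelled Irf8 cKO 2. Cd79a measured 82.6 RPKM in Ctrl 1 against 59.3 in its partner labelled Irf8 cKO, and 70.8 in Ctrl 2 against 41.6. Cd79b ranked 1 of the 9 genes in every library (Cd72 ranked 8 and Cd38 ranked 9 throughout, and Ms4a1 ranked 3 except in the library labelled Irf8 cKO 2, where it ranked 5) and lay above 99.4% of the tested genes in Ctrl 1. Both libraries labelled Irf8 cKO were below both Ctrl libraries for each chain, as they were for 44.7% of all tested genes as deposited. Among the tested genes 8.19% had a log2 ratio below that of Cd79b as deposited and 17.9% after scaling. The log2 ratio was -0.71 ± 0.33 (SE) for Cd79b and -0.61 ± 0.34 for Cd79a as deposited, and -0.23 ± 0.26 and -0.13 ± 0.25 after scaling. Neither passed (limma, Benjamini-Hochberg adjusted p = 0.241 and 0.287 as deposited, 0.795 and 0.886 after scaling), and the 95% interval after scaling ran from -0.78 to 0.32 for Cd79b and from -0.66 to 0.40 for Cd79a. The proteins pair as a heterodimer, and their transcripts kept a narrow ratio: Cd79a stood at 81.1% and 83.3% of Cd79b in Ctrl 1 and 2, with 84.9% and 91.3% for the partners labelled Irf8 cKO.

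Of the inhibitory coreceptors, Cd72 was higher in the libraries labelled Irf8 cKO, and Cd22 had groups that overlapped. Cd72 (chromosome 4, 43447724 to 43454626, minus strand, mm10) stood at 3.79 (Ctrl) and 6.85 RPKM (labelled Irf8 cKO) in experiment 1, and at 5.06 and 6.02 RPKM in experiment 2. It was higher in the library labelled Irf8 cKO in each experiment, and the groups did not overlap. The group means were 4.42 ± 0.896 RPKM for Ctrl and 6.43 ± 0.585 RPKM for labelled Irf8 cKO (SD, n = 2 each). As deposited the log2 ratio was 0.46 ± 0.32 and did not pass (limma adjusted p = 0.350). After scaling it was 0.87 ± 0.17, with 0.90 in experiment 1 and 0.85 in experiment 2, and it rose past the threshold (limma adjusted p = 0.0268). The call after scaling rests on how the scaling and the variance are set. It was lost with size factors from all genes above 0 (0.85, limma adjusted p = 0.280) and with a pseudocount of 0.1 (1.02, adjusted p = 0.0663). Without the experiment as a block it was also lost (0.87, adjusted p = 0.640). So it was on leaving out any single library (0.64 to 1.10), in fits that also drop the block and leave 1 library in a group. Those fits cannot tell loss of a library from loss of the block. The sign of Cd72 held in each. The authors' deposited table gives Cd72 log2 ratios of 1.04 (experiment 1) and 0.942 (experiment 2), each from 1 library against 1.

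Cd72 shares 313 of its 1503 annotated exon bases with Tesk1, a kinase gene on the opposite strand, and none of the sources used here says whether the counting used strand. Tesk1 gave 1.69 RPKM in Ctrl 1, 1.43 in Ctrl 2, 2.12 in labelled Irf8 cKO 1 and 1.56 in labelled Irf8 cKO 2. At that density over the shared bases Tesk1 reads would make up 0.298 to 0.441 RPKM of the Cd72 value, or 5.39% to 9.26% of it, with the highest share in Ctrl 1.

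Cd22 (chromosome 7, 30865404 to 30880342, minus strand) measured 17.3 RPKM in Ctrl 1 against 21.0 in its partner labelled Irf8 cKO, and 31.5 in Ctrl 2 against 21.1. The Ctrl libraries enclosed both others, so the groups overlapped, and the experiments went opposite ways as deposited (log2 ratio 0.27 and -0.56). The log2 ratio was -0.14 ± 0.35 in the deposited values and 0.32 ± 0.21 once scaled, neither past the threshold (limma adjusted p = 0.775 and 0.590), and it was positive in both experiments once scaled (0.50 and 0.15). Its sign thus turned with the scaling, and without Ctrl 1 the scaled ratio was -0.16. Cd22 overlaps the antisense gene Gm29439 by 463 of 4306 exon bases, and no value for that gene was used here.

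Of the 9 genes, Ms4a1 alone passed the test in the values as deposited, where it fell. Ms4a1 (chromosome 19, 11250603 to 11266151, minus strand) stood at 96.4 (Ctrl) and 49.0 RPKM (labelled Irf8 cKO) in experiment 1, and at 67.6 and 23.4 RPKM in experiment 2. Both libraries labelled Irf8 cKO lay below both Ctrl libraries. The log2 ratio was -1.23 ± 0.34 (limma adjusted p = 0.0356). Experiment 1 alone gave -0.96 and experiment 2 gave -1.49. After scaling the experiments stood closer to each other, at -0.72 and -0.78, and the ratio of -0.75 ± 0.24 no longer passed (adjusted p = 0.223, 95% interval -1.26 to -0.24). The call as deposited was also lost with no filter on low values (limma adjusted p = 0.308) and with a filter of 1 RPKM in all 4 libraries (0.0709). Without the experiment as a block it was lost too (0.614). So it was on leaving out Ctrl 1 (-0.97), Ctrl 2 (-1.48) or the library labelled Irf8 cKO 2 (-0.71). Fits without 1 library also drop the block, so they cannot tell loss of a library from loss of the block. The sign of Ms4a1 held in each. The authors' deposited table gives Ms4a1 log2 ratios of -0.771 (experiment 1) and -0.810 (experiment 2), each from 1 library against 1.

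**Figure D2:**
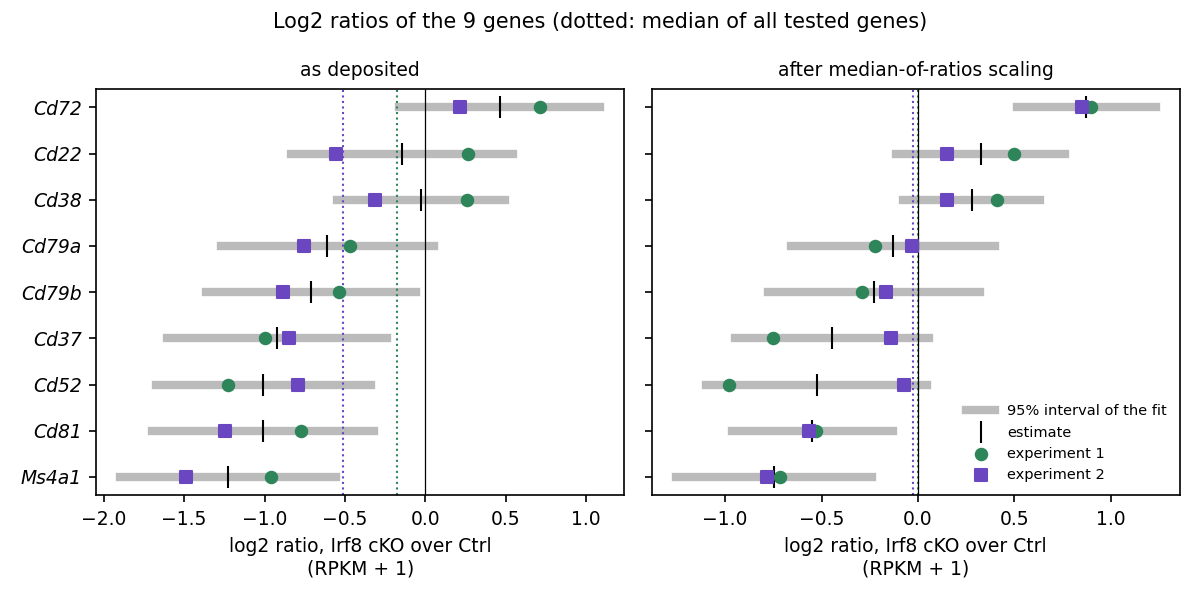
Log2 ratio of labelled Irf8 cKO over Ctrl for each gene on the log2(RPKM + 1) scale, as deposited on the left and after scaling on the right; grey bars are 95% intervals of the limma fit, black ticks its estimates, circles and squares experiments 1 and 2, and dotted lines the medians of all tested genes in each experiment. After scaling, Cd72 (0.87) and Ms4a1 (-0.75) stand at the ends with both experiments close together, while Cd52 and Cd37 are spread between experiments.

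The tetraspanins Cd81 and Cd37 both lay lower in the libraries labelled Irf8 cKO without passing the test. Cd81 gave 34.4 RPKM in Ctrl 1, 23.3 in Ctrl 2, 19.7 in labelled Irf8 cKO 1 and 9.25 in labelled Irf8 cKO 2, groups that did not overlap. Its log2 ratio was -1.01 ± 0.35 in the deposited values and -0.55 ± 0.20 once scaled (limma adjusted p = 0.130 and 0.295), with -0.77 and -1.25 in experiments 1 and 2 as deposited and -0.53 and -0.57 after scaling. It passed as deposited when the library labelled Irf8 cKO 1 was left out (-1.52, limma adjusted p = 0.0296), a fit that called 1450 of the 6446 genes lower. It also passed without a variance trend (adjusted p = 0.00811), as did Cd37 (0.0179) and Cd52 (0.00814). Cd37 measured 58.7 RPKM in Ctrl 1 against 28.9 in its partner labelled Irf8 cKO, and 46.5 in Ctrl 2 against 25.4. Its log2 ratio was -0.92 ± 0.35 in the deposited values and -0.45 ± 0.24 once scaled (adjusted p = 0.173 and 0.50), with -0.999 and -0.849 in experiments 1 and 2 as deposited and -0.75 and -0.14 after scaling. The experiments were thus closer for Cd37 than for Cd81 as deposited, and the order turned after scaling.

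Cd52 also differed more between experiments after scaling. It stood at 97.7 (Ctrl) and 41.2 RPKM (labelled Irf8 cKO) in experiment 1, and at 61.8 and 35.3 RPKM in experiment 2, so that both libraries labelled Irf8 cKO were below both Ctrl libraries. The log2 ratio was -1.01 ± 0.34 in the deposited values and -0.53 ± 0.27 once scaled (limma adjusted p = 0.113 and 0.481), with -1.22 and -0.79 in experiments 1 and 2 as deposited and -0.98 and -0.07 after scaling. Its protein is the shortest of the 9, at 74 residues, and its transcript of 514 bases is also the shortest. The transcripts of Cd79b, Cd37, Cd79a, Cd81 and Cd72 have 1195 to 1732 bases and those of Ms4a1, Cd38 and Cd22 have 3075 to 3416, against a median of 2884 over the tested genes.

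Cd38 was the lowest of the 9 genes in every library. It gave 1.90 RPKM in Ctrl 1, 1.97 in Ctrl 2, 2.47 in labelled Irf8 cKO 1 and 1.39 in labelled Irf8 cKO 2, on either side of Ctrl. The log2 ratio was -0.03 ± 0.27 in the deposited values and 0.28 ± 0.17 once scaled (limma adjusted p = 0.943 and 0.561), so its sign turned with the scaling, and the scaled interval ran from -0.08 to 0.63. Germinal centre markers were present: the proliferation gene Mki67 ranged over the 4 libraries from 47.4 to 76.6 RPKM, the transcription factor Mybl1 from 27.1 to 46.9, and Bcl6, the repressor that maintains the germinal centre state, from 23.4 to 38.7. All 11 germinal centre markers in the tables were above the filter and 0 passed the limma test in either direction (3 lower as deposited and 0 after scaling at an unadjusted p under 0.05; median log2 ratio -0.54 as deposited and -0.08 after scaling).

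Counted together, 1 of the 9 genes was lower and 0 were higher past the threshold as deposited, where 1.09% of all 6446 genes were called lower and 0.0931% higher. After scaling 0 were lower and 1 was higher, against 0.403% and 0.233% of all genes. At an unadjusted p under 0.05 (limma), 5 were lower as deposited, where 18.6% of all genes were, and after scaling 2 were lower (Ms4a1 and Cd81), against 6.1%, and 1 was higher (Cd72), against 5.35%. In both experiments 6 genes were lower as deposited (71.2% of all genes) and after scaling (30.2%), while 1 was higher as deposited (2.75%) and 3 after scaling (27.2%). The libraries labelled Irf8 cKO lay below both Ctrl libraries for 6 genes both as deposited (44.7% of all genes) and after scaling (17.2%), the same 6 in each: Cd79a, Cd79b, Ms4a1, Cd37, Cd81 and Cd52. They lay above both Ctrl libraries for Cd72 as deposited (1.19% of all genes), and for Cd72 and Cd38 after scaling (14% of all genes). The median log2 ratio of the 9 was -0.71 as deposited and -0.23 after scaling, against -0.35 and -0.02 over all tested genes. The genes were chosen with such results in view, so the counts describe them and test nothing. In the authors' deposited table, an unadjusted p under 0.05 in both experiments was reached by Ms4a1 among lower genes, as by 0.481% of the tested genes, and by Cd72 among higher genes, as by 0.372%.

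Among all 6446 genes, 0.295% had a log2 ratio below that of Ms4a1 as deposited and 0.574% after scaling. For Cd72 the shares were 99.6% and 99.7%. Cd81, Cd52 and Cd37 had 1.02% to 1.77% of genes below them as deposited and 1.94% to 3.68% after scaling, while Cd79a had 15.1% and 31.4%. Ordered by the scaled ratio, the 9 genes run from Ms4a1, Cd81, Cd52, Cd37, Cd79b, Cd79a, Cd38 and Cd22 to Cd72. Neighbours in that order differ by less than the larger of their SE, save for Cd22 and Cd72 and for Cd79a and Cd38.

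**Figure D3:**
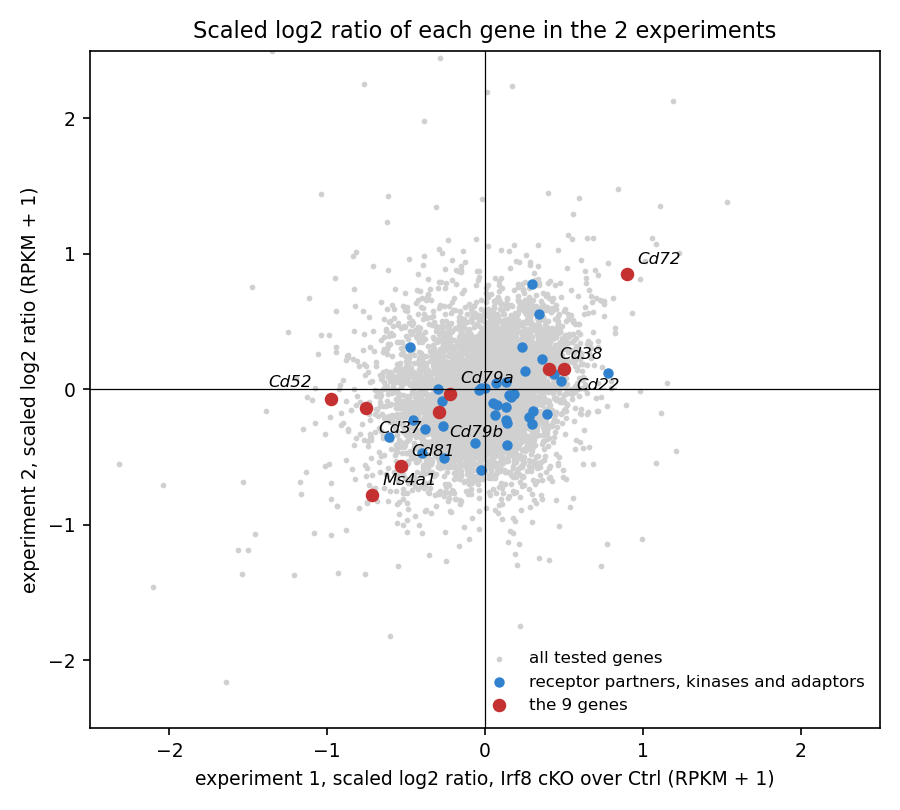
Scaled log2 ratio of labelled Irf8 cKO over Ctrl in experiment 1 (horizontal) and experiment 2 (vertical), with all tested genes in grey, receptor partners, kinases and adaptors in blue and the 9 genes in red; 1 gene lies outside the axes. Ms4a1 and Cd81 lie low and Cd72 high in both experiments, while Cd52 and Cd37 lie at -0.98 and -0.75 in experiment 1 and at -0.07 and -0.14 in experiment 2.

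Ratios of 1 gene to another inside a library are the same whatever the scaling, and show unequal change without saying which gene moved. Per Cd79b, Cd72 stood at 3.72% and 5.95% in Ctrl 1 and 2, with 9.80% and 13.2% for the partners labelled Irf8 cKO, which is 2.63 and 2.22 times as high. Per Ms4a1, it stood at 3.93% and 7.48% against 14.0% and 25.7%. Ms4a1 itself stood at 94.7% and 79.6% of Cd79b in Ctrl, with 70.1% and 51.4% for the partners labelled Irf8 cKO. Against the receptor chain Ms4a1 was thus at 0.740 and 0.645 times its Ctrl ratio in experiments 1 and 2, and Cd72 was higher.

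Of the other genes, Cd37 and Cd52 differed between experiments in their ratio to Cd79b. Cd37 stood at 57.6% and 54.7% of Cd79b in Ctrl 1 and 2, against 41.3% and 55.7% for their partners labelled Irf8 cKO. Cd52 stood at 95.9% and 72.8% against 59.0% and 77.5%. Both had a lower ratio in experiment 1 and a slightly higher one in experiment 2. Cd22 per Cd79b was higher in both experiments (1.77 and 1.25 times), though Ctrl 2, at 37.1%, exceeded the library labelled Irf8 cKO 1, at 30.1%. Cd38 per Cd79b was 1.89 and 1.32 times as high, with groups that did not overlap. Over the 36 pairs of the 9 genes, 29 ratios moved the same way in both experiments and 22 had groups that did not overlap, among them all 8 pairs with Cd72. These pairs use the same 9 genes again and again, so they are not separate results. The share over all pairs of tested genes was not computed, so the counts describe these genes alone. Cd72 per Ms4a1 had the largest change common to both experiments of the 36, and with 2 libraries against 2 an exact permutation test cannot go below p = 0.333, so no such test is given.

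**Figure D4:**
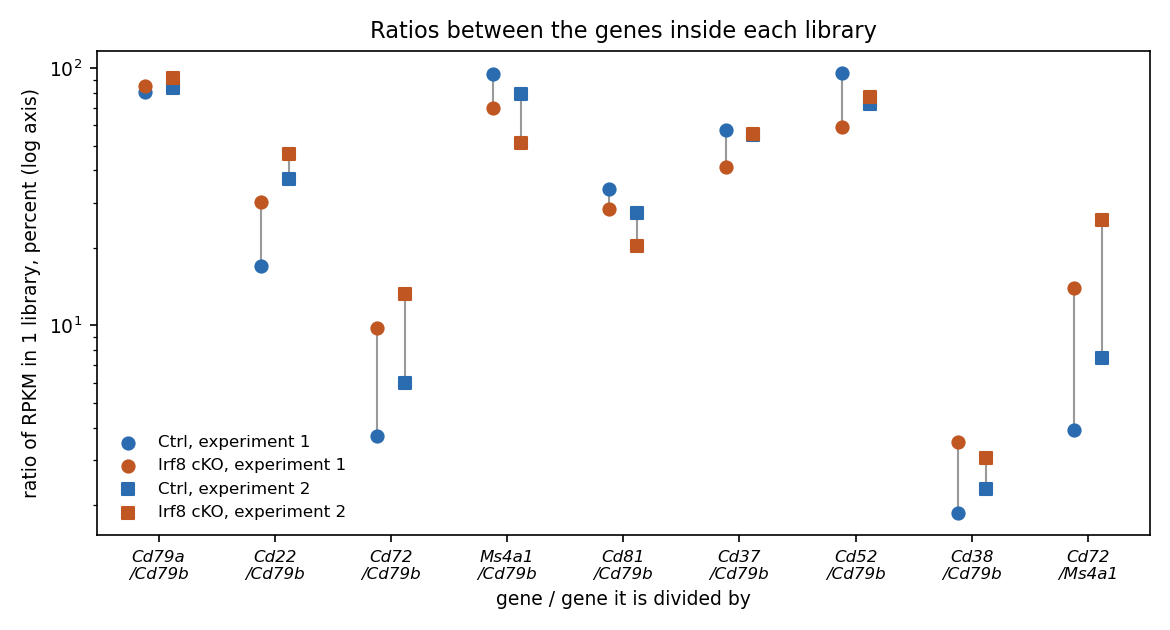
RPKM of a gene as a percentage of another gene in the same library (log axis), 8 genes per Cd79b and Cd72 per Ms4a1; symbols as in the plot of RPKM by library. Cd79a per Cd79b stays between 81.1% and 91.3%, while Cd72 per Ms4a1 goes from 3.93% and 7.48% in Ctrl to 14.0% and 25.7% in the libraries labelled Irf8 cKO.

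The listed partners of the receptor did not pass the test. Of 18 listed receptor complex and coreceptor partners found in the tables, 14 were tested, with 0 lower and 0 higher both as deposited and after scaling (limma; at an unadjusted p under 0.05, 5 lower and 0 higher as deposited, 2 lower and 2 higher after scaling; median log2 ratio -0.41 and -0.02). Cd24a, a small surface glycoprotein of B cells, had the highest mean of the list at 142.6 and 83.7 RPKM in Ctrl 1 and 2, with 117.8 and 50.8 for the partners labelled Irf8 cKO. Cd180, a Toll-like surface receptor that regulates B cell activation, followed at 95.1 and 97.7 against 61.2 and 47.9.

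Of the listed receptor kinases and adaptors, 25 had values and 24 were tested, again with 0 called in either direction (median log2 ratio -0.40 as deposited and 0.0012 after scaling, 12 of 24 below 0 then; limma unadjusted p under 0.05 for 3 lower and 0 higher as deposited, 0 lower and 1 higher after scaling). Blnk, the adaptor that links SYK to calcium signalling, gave 30.5 RPKM in Ctrl 1, 30.9 in Ctrl 2, 35.2 in labelled Irf8 cKO 1 and 20.2 in labelled Irf8 cKO 2, and the kinase Syk 15.9 and 21.1 against 16.8 and 11.3. Once scaled, the log2 ratio was 0.28 for Blnk and 0.07 for Syk. Among relatives of the 9 genes, 14 other MS4A genes were in the tables and 11 of them stayed under 1 RPKM in every library, with Ms4a4c and Ms4a6c the most abundant at 0.344 to 2.03 RPKM. Of 18 other tetraspanins 6 were tested and 0 called by limma (2 lower as deposited and 1 after scaling at an unadjusted p under 0.05). Cd53, a tetraspanin of all leukocytes, measured 29.8 and 22.8 RPKM against 16.04 and 10.6, and Tspan13 11.3 and 8.15 against 8.56 and 3.43. Their scaled log2 ratios were -0.48 and -0.29. Siglecg, the closest relative of Cd22 on mouse B cells, was the only other siglec tested. It stood at 10.0 and 14.6 RPKM in Ctrl, with 10.98 and 13.2 for the partners labelled Irf8 cKO. Scaling moved the Siglecg estimate from -0.007 to 0.45. Both experiments were then positive (0.34 and 0.55), though the groups overlapped. The scaled limma p was 0.0286 unadjusted and 0.364 adjusted, so Siglecg did not pass.

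The genes most like Ms4a1 over the 4 libraries, by Euclidean distance of centred log2(RPKM + 1) values as deposited, were Mcl1 (distance 0.102), which blocks cell death, Tmsb4x (0.125), which encodes an actin-binding peptide, and Hspa8 (0.191), a chaperone. Mcl1 measured 28.2 RPKM in Ctrl 1 against 15.1 in its partner labelled Irf8 cKO, and 19.3 in Ctrl 2 against 6.26. Those most like Cd72 were Pacsin1 (0.102), Cep89 (0.157) and Dcaf15 (0.157), all under 2.6 RPKM in every library. Pacsin1, a membrane-bending protein, stood at 0.984 (Ctrl) and 2.12 RPKM (labelled Irf8 cKO) in experiment 1, and at 1.66 and 1.92 RPKM in experiment 2. With 4 libraries such likeness is a description of these values.

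Of the markers of other cell states and types, the naive or memory list summed to 17.9 to 22.7 RPKM in Ctrl and 11.04 to 14.4 in its partners, led by the IgE receptor Fcer2a (10.2 and 14.3 against 5.04 and 5.94), and the plasma cell list to 42.1 to 61.3 against 30.7 to 49.2. The stromal list summed to 6.84 to 7.63 against 4.57 to 4.79, and the dendritic list to 1.37 to 1.78 against 0.99 to 1.03. None of these 4 lists had a gene past the limma threshold. At a limma unadjusted p under 0.05, 1 naive or memory and 1 stromal gene were lower as deposited. After scaling 1 naive or memory gene was lower and 1 higher at that level, and 1 stromal gene was lower. The 6 NK cell markers summed to at most 0.093 RPKM, and the 7 erythroid and platelet markers to at most 0.958. Of the T cell markers Cd3g, Cd8b1 and Icos were listed at 0 in every library, and the list's sum of 4.67 to 9.94 RPKM came mostly from Lck and Cd247. After scaling 1 of the 2 tested T cell markers was higher at a limma unadjusted p under 0.05. The 9 myeloid markers summed to 65.9 and 7.74 RPKM in Ctrl 1 and 2, with 17.1 and 2.42 for the partners labelled Irf8 cKO, carried by S100a8, S100a9 and Lyz2, while Cd14 was at 0 throughout. S100a8 and S100a9, a pair of neutrophil proteins, fell with log2 ratios of -1.72 and -1.67 as deposited (limma adjusted p = 8.7e-06 and 2.0e-05) and also passed after scaling (-1.44 and -1.37). In both experiments the deposited myeloid, naive or memory, plasma cell, stromal, dendritic and germinal centre sums were lower in the library labelled Irf8 cKO. So was Ms4a1, and so were 71.2% of all tested genes. After scaling the median log2 ratio was -1.37 for the myeloid list, -0.14 for stromal, -0.12 for dendritic (1 gene tested) and -0.08 for germinal centre. It was 0.07 for the plasma cell list and 0.17 for the naive or memory list. The part of these lists in the results was not tested. The naive or memory list holds Cd38 itself, and after scaling 3 of its 4 tested genes had a log2 ratio above 0 (median 0.17), Fcer2a being the exception (-0.58).

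The RefSeq promoter table (GRCm38.p6, 250 bases before to 50 after a start site) held 6 of the 9 genes: Cd72, Cd38, Cd79a, Cd22, Cd37 and Cd81. The ETS-IRF composite motif, searched on both strands, was found in 0 of these 6 windows and in 2.72% of all 32851 promoters. The interferon response type of motif was likewise found in 0 of 6 and in 3.44% of all promoters. That says only that these letters are not in these windows.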

How the data were processed

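RNA was measured in 4 libraries of sorted germinal centre B cells (2 Ctrl, 2 Irf8 cKO). A further 4 samples (lipopolysaccharide-stimulated cultures) were not analysed here. Per the labels' protocols, NuGEN's Ovation system amplified the RNA before Nextera XT library preparation. The authors deposited RPKM per RefSeq gene, 1 table per experiment, made in Wardrobe per the series design text. Per the submitters' processing notes, tools of the series include DESeq, Cuffdiff, Cufflinks 2.2 and the aligner TopHat2 2.0, with no word on which were used for these libraries. The genome builds named there are mm9 and mm10, and the tables' coordinates for the 9 genes overlap the same genes in GENCODE M21 on GRCm38 (mm10). Each table also holds the authors' deposited log2 ratio, which differs from that of the RPKM by a fixed offset (0.205 and 0.721 for the first and second table; 97.1% and 96.3% of genes at 1 RPKM or more lie within 0.05 of it), and the authors' unadjusted p-value.

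Entries sharing a symbol (2 symbols) were summed. Genes reaching 1 RPKM in 2 or more of the 4 libraries were fitted as log2(RPKM + 1) in limma 3.58.1 (R 4.3.3) with the experiment as a block and eBayes with a variance trend, 2-sided, adjusted by Benjamini-Hochberg at 0.05. Fold changes on that scale understate the change of low genes. As deposited the prior degrees of freedom were infinite, so that SE and p come from genes of similar level, not from a gene's own spread; after scaling they were 13.6. Scaling divided each library by the median ratio to the gene's geometric mean over 4614 genes at 1 RPKM or more in all 4. The block was used because each experiment has its own table with 1 library of each genotype; the correlation of deviations between libraries of an experiment was 0.377 before scaling and 0.333 once scaled. Read totals were estimated from single-transcript genes (71.4% to 75.3% of low values whole within 0.1 reads), which does not recover whole reads, and count tests were not used. Lengths and coding sequences came from GENCODE M21, matched by RefSeq accession. Named genes were all 9, Irf8, listed genes past the threshold or otherwise the 2 with the highest mean of each list, and the 3 genes nearest Ms4a1 and Cd72; others were chosen after their values were seen. Members and lists were chosen with earlier results of these data known. Tables and figures used Python 3.11.15, pandas 2.3.3 and matplotlib 3.10.9.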

Additional observations from a re-analysis of the deposited data

How the results depend on the processing

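Genes called as deposited numbered 76, and 1 of the 9 genes was among them. The count was 41 after scaling, 0 with no filter, 10 with 1 RPKM required in all 4 libraries, 21 with no replicate block, 283 without a variance trend, and 0 to 1459 on leaving out 1 library, without the block. Of the 9 genes, 0 were called with no filter, with the stricter filter or with no replicate block, 4 without a variance trend, and 0 to 2 on leaving out 1 library. The single call after scaling was another gene, Cd72 in place of Ms4a1. With no filter limma gave 1694 lower and 292 higher genes at an unadjusted p under 0.05, over 15557 genes, and the cause of the lost calls was not tested.

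After scaling 41 genes were called, against 0 with size factors from genes above 0 in all libraries, 93 with library medians set equal, 22 with a pseudocount of 0.1, 7 with no replicate block and 0 to 2 without 1 library. Cd72 was the single gene of the 9 called after scaling, and 0 were called with factors from genes above 0, with a pseudocount of 0.1 or with no replicate block. Fits that left out 1 library also dropped the block, and the Cd72 call was lost in each. Alternatives in how to scale were chosen after seeing the data.

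Cd22 and Cd38 changed sign. Cd22 had a log2 ratio of 0.32 after scaling and 0.27 as deposited without Ctrl 2, where all others as deposited were negative (lowest -0.56 without Ctrl 1), and -0.16 after scaling without Ctrl 1 (highest 0.81 without Ctrl 2). Cd38 had 0.28 after scaling and 0.24 as deposited without the library labelled Irf8 cKO 2 (lowest -0.30 without the library labelled Irf8 cKO 1). The other 7 kept their sign under every alternative run. The cause of these changes was not tested. The lowest gene, Cd38, had an estimated 288 reads or more per library, a number of amplified reads and not of molecules.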
